A study of Mus musculus with 2 samples.

Results

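The cells described here are mouse embryonic stem cells (ESCs) of a Cnot8 knockout (KO) line, grown in serum/LIF medium and split by how many Nanog transcripts were counted in each. They were chosen by the measured counts themselves, given as unique molecular identifiers (UMIs), each of which stands for 1 captured transcript. A cell was kept when it had at least 1000 detected genes, at most 10% of its UMIs from mitochondrial genes, 8000 to 25000 UMIs in all and no UMI of tdTomato. It also needed at least 2 UMIs summed over the Y-linked genes Ddx3y, Eif2s3y, Kdm5d and Uty, and none of Gata6, Sox17 or Col1a2. These limits left 2286 KO-line ESCs. The 184 cells with at least 3 Nanog UMIs formed the Nanog-high group and the 1270 cells with no Nanog UMI formed the Nanog-0 group, together 1454 of the 25611 barcodes in the series.

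The series held 2 scRNA-seq libraries made in droplets, one of serum/LIF ESCs on feeder cells (0 h) and one of ESCs taken towards epiblast-like cells for 48 h with activin A, bFGF and KSR (48h-EpiLCs). In each library wild-type (WT) cells with the ROSAmT/mG reporter, which transcribes tdTomato, had been mixed with Cnot8 KO cells in equal numbers, all of ICR strain. Cnot8 is a deadenylase, an enzyme that trims mRNA poly(A) tails as a subunit of Ccr4-Not. Neither stage had a replicate, so every value below describes these libraries, no test was run, and every interval covers counting error only. Cells are not replicates of a condition, and intervals over their summed UMIs are too narrow to stand for the spread between cultures.

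The KO line goes back to a blastocyst from a cross of Cnot8 heterozygotes, whose mutation had been made with a guide RNA to exon 2, and a single colony had been picked for it. Line and genotype therefore cannot be told apart. The label of each library gave the genotype as wild type although its title named WT and KO cells, and no deposited column assigned a genotype to a cell. The absence of tdTomato together with Y-linked transcripts served as the mark of the KO line. A second set of ESCs, called WT-line ESCs below, had no UMI of the Y-linked genes, Ipp or Nr1h5 under the same limits (3036 cells), and a tdTomato UMI was found in 10.9% of them. Cnot8 itself stood at 77.3 CPM (UMIs per 1000000 UMIs) in Nanog-0 cells of the KO line and at 48.2 CPM in those of the WT line. A 3′ count does not read the edited exon and so gives no check of the knockout.

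Nanog is a homeodomain transcription factor of the naïve pluripotency network, in which it acts beside Oct4, Sox2, Esrrb, Klf4 and Tbx3. In ESCs kept in serum and LIF its level is known to vary from cell to cell, and cells with little Nanog can regain it. Cells with low Nanog are known as more prone to leave the naïve state towards formative pluripotency, the state that EpiLCs model. Nanog lies on chromosome 6 (chr6:122707489-122714633, plus strand, GRCm38). Oct4 and Sox2 are known to bind its promoter at a composite of an octamer-like and a Sox element. The 250 bases before its start in RefSeq (chr6:122707239-122707488, GRCm38.p6, plus strand) are shown because they lie in front of the transcript on which the cells were chosen, and capitals mark the only match to TTTGCATNACAA on either strand.
Nanog: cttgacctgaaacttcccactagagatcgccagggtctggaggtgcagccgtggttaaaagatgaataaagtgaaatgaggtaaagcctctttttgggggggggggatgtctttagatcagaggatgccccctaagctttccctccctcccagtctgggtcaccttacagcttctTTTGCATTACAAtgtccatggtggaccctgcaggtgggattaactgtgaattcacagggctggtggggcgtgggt

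The composite TTTGCATNACAA occurred in 0.0333% of RefSeq windows from 250 bases before to 50 after a gene's start, counted with 1 window for each of 27025 genes. Its first base lay at position -75 from the Nanog start.

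Nanog UMIs were spread widely over the KO-line ESCs. Cells with 0 UMIs made up 55.6% (exact binomial 95% interval 53.5% to 57.6%), 571 cells had 1 UMI, 261 had 2 UMIs, and 8.05% (6.97% to 9.24%) had 3 or more. The highest count in a cell was 13. If every cell had held the same share of Nanog among its UMIs, counting alone would have left 45.5% of cells at 0 and put 5.41% at 3 or more, and the variance of the counts was 2.06 times their mean. Nanog thus varied between cells by more than counting gives, with more cells than that at each end. A count of 0 does not show that a cell lacks Nanog, so the 1270 cells are called Nanog-0 here and not Nanog-negative.

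These Nanog values are what the groups were made from and are given as a description. Nanog stood at 57.9 CPM over all KO-line ESCs and at 272 CPM in the Nanog-high group, whose median was 3 UMIs per cell and which held 41.0% of all Nanog UMIs of the line. In the Nanog-0 group 0 of 17236275 UMIs allows at most 0.174 CPM (3 counts), so Nanog-high cells stood at least 1562-fold higher by construction. The cells just inside the upper limit had 3 UMIs (94 cells, 198 CPM) and those just outside it had 2 UMIs (261 cells, 137 CPM). Just outside the lower limit lay the 571 cells with 1 UMI (70.2 CPM). Free RNA in droplets can add UMIs to cells that do not transcribe a gene. In 78 cells of the ESC library with at least 4 of 8 fibroblast markers, a definition made after the data were seen for cells that should lack Nanog, 11.5% had a Nanog UMI (5.41% to 20.8%) and 2.56% had 3 or more (0.312% to 8.96%), at a median of 15270 UMIs. In KO-line ESCs 44.4% had a Nanog UMI at a median of 13215 UMIs. The fibroblast-marked cells also held 52.2 CPM of the pluripotency factor Sox2, against 246 CPM in the KO-line ESCs.

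**Figure D1:**
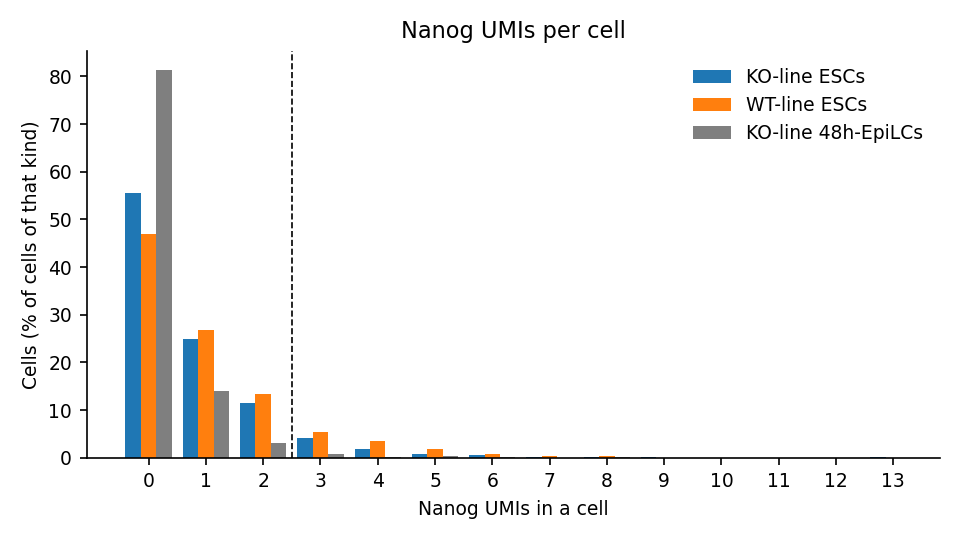
Nanog UMIs in a cell (horizontal axis) against the percentage of cells (vertical axis) in 2286 KO-line ESCs, 3036 WT-line ESCs and 2264 KO-line 48h-EpiLCs. The dashed line marks the limit of 3 UMIs for Nanog-high cells. Most cells of each kind sit at 0 to 2 UMIs with a tail to the right, and the KO-line 48h-EpiLCs have the largest share at 0. The axis ends at 13 UMIs, and the highest WT-line count was 18.

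The 2 groups differed in more than Nanog. Nanog-high cells had a median of 14576 UMIs and 4100 genes, and Nanog-0 cells 12882 UMIs and 3789 genes. Levels are therefore given as CPM of the summed UMIs. With every cell thinned to 8000 UMIs, 57 of the 66 higher and 30 of the 38 lower genes described below were again past the same fold. Mitochondrial genes took a median of 3.92% of UMIs in Nanog-high cells and 3.72% in Nanog-0 cells, and ribosomal protein genes 20.2% and 20.5%. After each cell had been thinned to 8000 UMIs, the median was 2913 genes in Nanog-high cells and 2901 in Nanog-0 cells. By a doublet score, 36 of 184 Nanog-high cells (19.6%) and 96 of 1270 Nanog-0 cells (7.56%) were among the highest-scoring 10% of the library. Markers of the WT line were also higher in Nanog-high cells. Gc stood at 10.0 CPM against 4.29 CPM, Slc25a13 at 15.4 CPM against 8.82 CPM, and Dera at 8.58 CPM against 5.22 CPM, where Nanog-0 WT-line cells held 53.5, 52.5 and 34.6 CPM. The part of doublets in the differences below was examined only by leaving out cells. With the highest-scoring 10% left out, 57 of the higher and 31 of the lower genes were again past the fold, and without cells that held a Dera or Slc25a13 UMI 58 and 31 were.

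Among 5701 genes with a mean of at least 20 CPM over the 2 groups, 66 (1.16%) were at least 1.5-fold higher in Nanog-high cells and 38 (0.667%) were at least 1.5-fold lower, Nanog and the genes that defined the cells left out. Ratios are given as log2 of CPM + 1, Nanog-high over Nanog-0, with the exact 95% interval of the ratio of the counts in brackets. For each of the 104 genes that interval excluded 0. The genes were picked by the size of that ratio, so this adds no support to the calls. Over all measured genes the median ratio was -0.0021, and 49.4% lay above 0. Scaling to CPM sets that centre, so ratios are relative to it and say nothing of the total RNA of a cell.

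**Figure D2:**
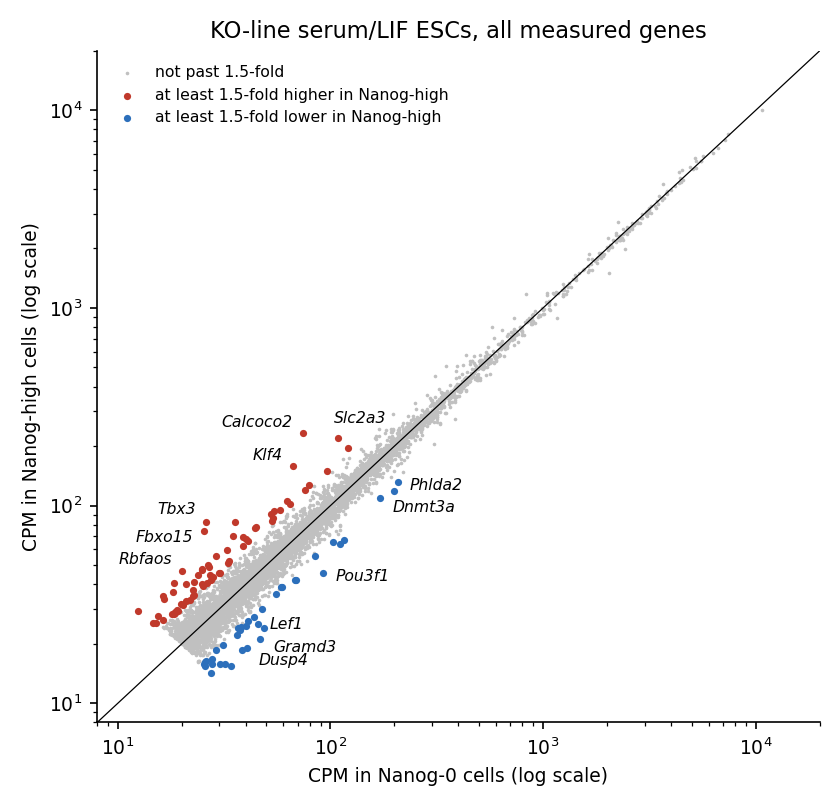
CPM in Nanog-0 cells (horizontal, log scale) against CPM in Nanog-high cells (vertical, log scale) for 5701 measured genes of KO-line ESCs, with genes at least 1.5-fold higher in red and lower in blue and the line of equality in black. Most genes hug the line, and Calcoco2, Tbx3, Fbxo15 and Klf4 stand farthest above it among the labelled genes.

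The gene farthest from equality was Calcoco2, which encodes an autophagy receptor. It stood at 233 CPM in Nanog-high cells and 74.0 CPM in Nanog-0 cells, a log2 ratio of 1.64 (1.51 to 1.79), and no other annotated gene overlaps it on chromosome 11. Tbx3, a T-box factor of the naïve network, followed with 82.6 CPM against 26.0 CPM and a ratio of 1.63 (1.43 to 1.90). Fbxo15, an F-box gene long used as a reporter of undifferentiated ESCs, stood at 74.0 CPM against 25.4 CPM with a ratio of 1.51 (1.30 to 1.78). Klf4, a Krüppel-like factor downstream of LIF, stood at 158 CPM against 66.7 CPM with a ratio of 1.23 (1.08 to 1.40). The naïve factors Tbx3 and Klf4 were thus among the 4 genes with the largest ratios of all measured genes. Others of the 10 highest were Ak4, an adenylate kinase (1.20), the antisense transcript Rbfaos (1.18), 1700013H16Rik (1.17), Mreg (1.05) and the glucose transporter gene Slc2a3 (1.02). Whether the counting used the strand is not stated in the sources used here, so Rbfaos cannot be told apart from Rbfa on the other strand. The same holds for Tbx3 with Tbx3os1 and for Fbxo15 with Timm21. It also holds for genes named below, among them Pou3f1 with Gm2164, Gpx2 with Fntb and Lef1 with Gm43352. Further such genes are Ccdc136 with Gm44354, Plcg2 with Gm27361 and Dnmt3a with Dnmt3aos.

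At the other end, Gramd3 stood at 21.1 CPM in Nanog-high cells and 46.8 CPM in Nanog-0 cells, a log2 ratio of -1.11 (-1.56 to -0.77). Bnc2, a zinc finger gene, had a ratio of -1.09 and Ccdc136 one of -1.06. Dusp4, a phosphatase that dampens ERK, stood at 18.6 CPM against 38.3 CPM with a ratio of -1.01 (-1.48 to -0.64). Pou3f1 (Oct6), a POU factor that marks the exit from naïve pluripotency, stood at 45.8 CPM against 92.7 CPM with a ratio of -1.002 (-1.29 to -0.76). The others of the 10 lowest were Gpx2, a glutathione peroxidase gene (-0.99), Plac8 (-0.97), Cthrc1 (-0.91), Plcg2, a phospholipase gene (-0.89), and Lef1, a nuclear effector of Wnt signalling (-0.83). The ratios of the lower genes were smaller in size than those of the highest 4 genes. Outside the naming rule, and picked after the values had been seen, Phlda2 (132 CPM against 207 CPM), Sfmbt2 (66.9 CPM against 116 CPM) and Cdkn1c (41.8 CPM against 69.2 CPM) were also lower. Nanog-0 WT-line cells held less Gramd3 (9.92 CPM), Bnc2 (13.4 CPM), Dusp4 (15.7 CPM) and Sfmbt2 (34.8 CPM) than Nanog-0 KO-line cells. Of the 10 lowest genes only Pou3f1 (93.2 CPM) and Lef1 (72.3 CPM) were not lower in Nanog-0 WT-line cells. Markers of the WT line were higher in Nanog-high cells, and the part of WT-line transcripts in these ratios was not tested.

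The KO-line cells with 1 or 2 Nanog UMIs belonged to neither group. They give the same genes in cells that the rule did not use, though in the same library and with WT-line markers as given below. Calcoco2 stood at 86.1 CPM in cells with 1 UMI and 124 CPM in cells with 2 UMIs, between the 74.0 CPM of Nanog-0 cells and the 166 CPM of cells with 3. In cells with 5 or more Nanog UMIs it reached 369 CPM. Tbx3 stood at 33.4 CPM with 1 UMI, 51.3 CPM with 2 UMIs and 122 CPM with 5 or more. Klf4 went from 66.7 CPM with 0 through 86.8, 116, 146 and 160 CPM to 180 CPM over the 6 classes. These genes were picked by their ratio between cells with 0 and with 3 or more UMIs. Only the classes with 1 and 2 UMIs lie outside that choice. In those classes each of these genes lay between its levels with 0 and with 3 UMIs. Over all classes only Tbx3, at 75.1 CPM with 3 UMIs and 56.6 CPM with 4, broke the order.

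Pou3f1 ran the other way, from 92.7 CPM with 0 through 77.2, 58.9, 53.3 and 47.4 CPM to 29.3 CPM with 5 or more. Dnmt3a, a de novo DNA methyltransferase gene, was at 171 CPM with 0 and 175 CPM with 1 UMI, and only then lower, at 133 CPM with 2 UMIs and 72.6 CPM with 5 or more. Lef1 stood at 45.4 CPM with 0, 30.4 CPM with 2 UMIs and 7.0 CPM with 5 or more. Comparing cells with 2 Nanog UMIs against cells with 1, which share no cell with either group, 59 of the 66 genes higher in Nanog-high cells (89.4%) were higher, where 49.1% of all measured genes were. Of the 38 lower genes 31 (81.6%) were lower, where 50.9% of all measured genes were. The median ratio was 0.21 for the former and -0.13 for the latter, so a difference of 1 Nanog UMI went with small differences. The cells with 2 UMIs were also somewhat deeper, with a median of 13979 UMIs against 13553. They held more of the WT-line markers Gc (7.86 CPM against 6.02 CPM), Slc25a13 (13.1 against 11.2) and Dera (5.76 against 4.92), with overlapping counting intervals. Nr1h5, absent by rule from WT-line cells, went from 56.1 CPM with 0 Nanog UMIs to 25.1 CPM with 5 or more, and Ipp from 105 to 89.3 CPM. The part of WT-line transcripts in the differences between classes was not tested.

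**Figure D3:**
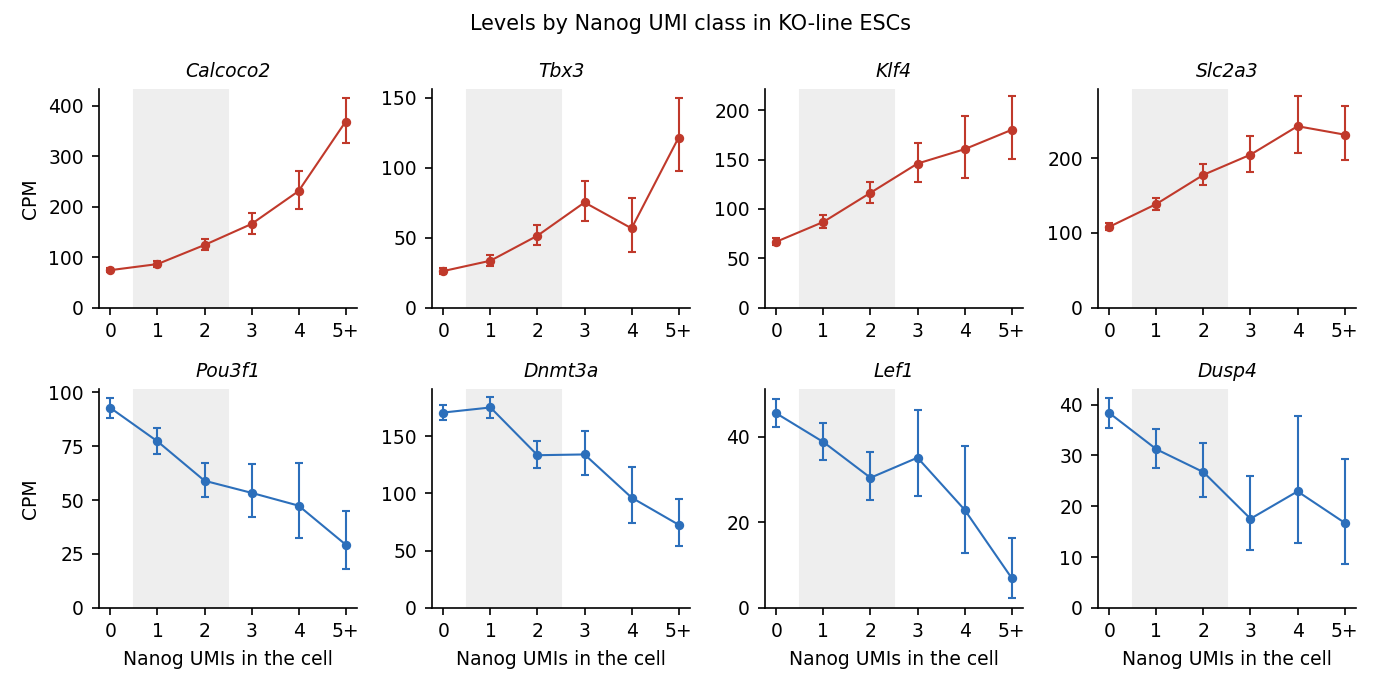
CPM (vertical axes, starting at 0) of 8 genes by the number of Nanog UMIs in the cell (0, 1, 2, 3, 4 and 5 or more) in KO-line ESCs, with exact Poisson 95% intervals as bars. The shaded classes (1 and 2 UMIs) were in neither group. The upper genes (Calcoco2, Tbx3, Klf4, Slc2a3) are higher and the lower genes (Pou3f1, Dnmt3a, Lef1, Dusp4) lower towards 5 or more.

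The naïve factors as a list were higher in Nanog-high cells, but unevenly. Of 12 genes 9 reached the mean of 20 CPM, 3 of these (Tbx3, Klf4, Tfcp2l1) were at least 1.5-fold higher, 8 lay above 0, and the median ratio was 0.48 beside -0.0021 over all genes. Over all measured genes 1.16% were at least 1.5-fold higher and 49.4% lay above 0. Tfcp2l1, a factor that LIF keeps up, stood at 69.4 CPM against 38.9 CPM with a ratio of 0.82 (0.60 to 1.07). Esrrb, an orphan nuclear receptor and partner of Nanog, stood just under the fold at 80.1 CPM against 53.4 CPM (0.58, 0.37 to 0.80). Zfp42 (Rex1), a classical marker of undifferentiated ESCs, had a ratio of 0.48 from 803 CPM against 576 CPM, and Klf2 one of 0.21. Nr0b1 (Dax1), an Oct4-interacting repressor, was the member on the other side, at 80.8 CPM against 95.8 CPM (-0.24, -0.45 to -0.04). Prdm14, Dppa3 and Tcl1 were under the limit of expression.

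Genes of general pluripotency were near level. All 10 were measured, none was past the fold, 8 lay above 0 (where 49.4% of all measured genes did) and the median ratio was 0.22. Pou5f1 (Oct4) stood at 88.7 CPM against 73.6 CPM (0.27, 0.07 to 0.47), Sox2 at 283 CPM against 231 CPM (0.29, 0.18 to 0.40), and Dppa5a at 2731 CPM against 2250 CPM (0.28). Fgf4, the ligand through which ESCs drive their own differentiation, had the largest ratio at 0.47. Utf1, a chromatin factor, had the smallest at -0.16 from 728 CPM against 813 CPM. Nanog-0 cells therefore still held the transcripts of Oct4, Sox2 and Utf1 in these libraries.

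Of 17 formative and primed genes 9 were measured, of which 4 (Pou3f1, Lef1, Sox4, Dnmt3a) were at least 1.5-fold lower in Nanog-high cells, Tcf15 was higher, and 4 lay between. Over all measured genes 0.667% were at least 1.5-fold lower and 1.16% higher. The median ratio was -0.16. Dnmt3a stood at 109 CPM against 171 CPM (-0.64, -0.82 to -0.47) and Sox4 at 19.7 CPM against 31.2 CPM (-0.64). Dnmt3b, the second de novo methyltransferase, differed less, at 239 CPM against 266 CPM (-0.16, -0.28 to -0.04). Tcf15, a helix-loop-helix factor known from cells primed to leave the naïve state, went against the list at 44.4 CPM against 23.8 CPM (0.87, 0.60 to 1.19). By Nanog class Tcf15 rose to 52.0 CPM with 4 UMIs and stood at 32.1 CPM with 5 or more. Nanog-0 WT-line cells held 131 CPM of Tcf15, and the part of WT-line transcripts in its ratio was not tested. Otx2, at 13.9 CPM against 11.3 CPM, and Fgf5, at 0.358 CPM against 1.16 CPM, both hallmarks of formative cells, were too low to be measured in these ESCs. The sign of the list median depended on that limit. At a mean of 10 CPM in place of 20 it was 0.057.

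Summed over a list, the same pattern was seen cell by cell. In cells thinned to 8000 UMIs the naïve list gave a median of 17 UMIs per cell in Nanog-high cells (10th to 90th percentile 9.0 to 26.7) and 12 UMIs in Nanog-0 cells (6.0 to 20.0). The middle ranges of the groups therefore overlapped widely. For the formative list the median was 6 UMIs in each group, with a mean of 6.04 (SD 2.96 over cells) against 6.96 (SD 3.63), and the 90th percentile was 9.7 against 12.0. The naïve list was higher in Nanog-high cells at each percentile given, and the formative list differed at the 90th percentile and not at the median.

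**Figure D4:**
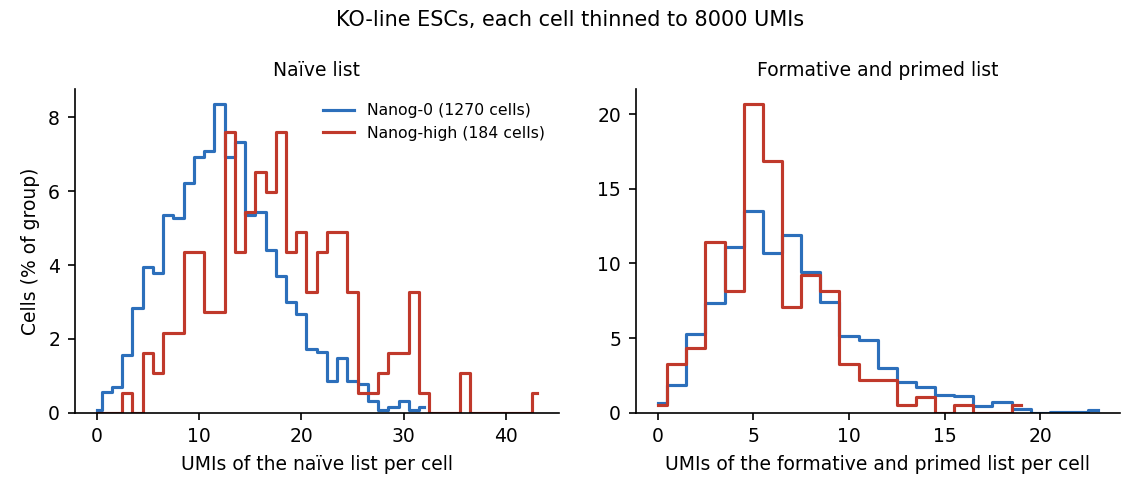
Percentage of cells (vertical axes) by UMIs of the naïve list (left) and of the formative and primed list (right) per cell, after thinning to 8000 UMIs, in 184 Nanog-high (red) and 1270 Nanog-0 (blue) KO-line ESCs. The naïve curve of Nanog-high cells lies to the right, with medians of 17 and 12 UMIs, and the formative curves share a median of 6 UMIs.

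LIF, through its receptor and STAT3, sustains ESC self-renewal. Of its 10 measured genes Klf4 and Socs3 (33.3 CPM against 21.8 CPM, 0.59) were past the fold and 8 lay above 0, with a median of 0.15. Over all measured genes 1.16% were past the fold upwards and 49.4% lay above 0. Stat3 was level at 53.7 CPM against 55.5 CPM and Lifr at 26.1 CPM against 25.1 CPM. FGF signalling through ERK pushes ESCs out of the naïve state. Of 13 measured genes 2 were past the fold, both lower, where 0.667% of all measured genes were. These were Dusp4 and Egr1, an early ERK target (27.2 CPM against 43.8 CPM, -0.67), while the ERK feedback genes Dusp6 (0.17), Etv5 (0.02) and Spry4 (0.51) did not follow them. Each of the other FGF genes stayed within the fold as well, and the median was 0.02.

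In the Wnt list, where 4 of 9 genes were measured, the nuclear factors stood on opposite sides of 0. Tcf7l1 (Tcf3), a repressor of pluripotency genes, stood at 51.5 CPM against 33.1 CPM (0.62, 0.36 to 0.90) and Lef1 at 25.04 CPM against 45.4 CPM (-0.83, -1.23 to -0.51), while beta-catenin (Ctnnb1) was level at 190 CPM against 198 CPM. In the Nodal list 7 of 8 genes were measured. Smad7, an inhibitor of Smad signalling, stood at 91.2 CPM against 52.5 CPM (0.79, 0.59 to 1.00), and Skil (SnoN), a corepressor of Smads, at 65.5 CPM against 103 CPM (-0.65, -0.89 to -0.44). Nodal itself was level at 84.1 CPM against 82.6 CPM. Among the BMP genes Bmp4, the ligand, stood at 70.5 CPM against 35.0 CPM (0.99, 0.77 to 1.24). Its targets Id1 (0.29), Id2 (0.03) and Id3 (0.12) stayed within the fold. In KO-line ESCs the ligand Bmp4 was thus past the fold and the Id genes were not, unlike Id2 and Id3 in the 48h-EpiLCs described below. The difference between the stages was not tested.

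Among enzymes that write or remove DNA methylation 2 of 8 measured genes were past the fold, 3 lay above 0 and 5 below. Over all measured genes 1.16% were past the fold upwards and 0.667% downwards, and 49.4% lay above 0. Tet2, which oxidises 5-methylcytosine, was higher at 55.8 CPM against 29.1 CPM (0.92, 0.67 to 1.20), and Dnmt3a was lower. Tet1 had a ratio of 0.19, the maintenance genes Dnmt1 (0.02) and Uhrf1 (-0.01) were level, Dnmt3l, the cofactor of the de novo enzymes, had one of -0.22, and Tdg, a glycosylase that takes part in demethylation, one of -0.27 (46.1 CPM against 55.8 CPM). The median of the list was -0.08.

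Of the genes next to Nanog on chromosome 6, 3 of 7 were measured. Slc2a3, whose annotated span starts 13.2 kb beyond the end of Nanog on the other strand, stood at 221 CPM against 108 CPM (1.02, 0.89 to 1.16). Gdf3, a TGF-beta family ligand 97.4 kb away, was level at 116 CPM against 109 CPM, and Necap1, 160 kb away, at 38.6 CPM against 38.9 CPM. Dppa3 (Stella), 77.2 kb away, was at 14.3 CPM against 10.7 CPM and under the limit. Of the measured neighbours it was Slc2a3, the closest, that went with Nanog. Its span holds the gene model Gm4482 on the same strand.

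The cell cycle, stress response and Ccr4-Not lists held no gene past the fold, and the immediate early list held only Egr1. All 15 S-phase genes and all 15 G2/M genes were measured, with medians of -0.01 and 0.04. The integrated stress response list had a median of 0.08 over 6 measured genes. Among Ccr4-Not genes Cnot8 stood at 60.8 CPM against 77.3 CPM (-0.34, -0.58 to -0.11) and Cnot7 at 48.6 CPM against 45.8 CPM (0.09). The 5 measured genes had a median of 0.05.

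Defining markers of other cell types were low in each group. Gata6, Sox17 and Col1a2 were at 0 by the rule. The other defining primitive endoderm genes Gata4, Sox7 and Pdgfra were under 20 CPM, and the summed level of the 15 genes was 259 CPM in Nanog-high and 224 CPM in Nanog-0 cells, of which Sparc, a secreted matrix protein gene, gave 195 CPM and 166 CPM. Mesendoderm markers summed to 7.87 CPM against 8.76 CPM over 8 genes, with none measured. Feeder markers summed to 418 CPM against 470 CPM over 12 genes, of which 4 were measured and Col1a1, Col3a1, Lum, Dcn and Postn were under the limit. Tagln, a smooth muscle and fibroblast gene, was past the fold at 15.7 CPM against 27.8 CPM (-0.78). Neuroectoderm markers summed to 100.2 CPM against 76.99 CPM over 7 genes, with Tubb3 alone measured (0.48), and trophoblast markers to 123 CPM against 99.9 CPM over 10 genes, with Rhox6 alone measured (0.41). Markers of 2-cell-like cells summed to 17.2 CPM against 3.07 CPM over 11 genes. The Nanog-high sum was not spread evenly over the group. Zscan4d stood at 24.5 CPM in the 43 cells with 4 Nanog UMIs, and at 0 CPM with 3 and with 5 or more. Usp17la stood at 10.7 CPM with 4, 1.40 CPM with 3 and 2.79 CPM with 5 or more. Without any cell that held a UMI of these markers, 175 Nanog-high and 1243 Nanog-0 cells remained, and 58 of the 66 higher and 34 of the 38 lower genes were again past the fold. The part of cells of other types in the ratios above was not tested otherwise.

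The WT-line ESCs came from the same droplets and were not used by the rule. They held more Nanog, 86.1 CPM over 3036 cells, with 46.9% at 0 and 12.9% at 3 or more. Split in the same way, 393 Nanog-high cells were set beside 1424 Nanog-0 cells. Of 5366 genes measured there, 47 (0.876%) were at least 1.5-fold higher in Nanog-high cells and 18 (0.335%) were lower. Of the 66 genes higher in the KO line 51 were measured in the WT line, 50 of these were above 0 (98.0%, where 50.1% of all measured genes were), and 22 were past the fold. Rfk was the exception at -0.01. Of the 38 lower genes 28 were measured, 27 were below 0 (96.4%, where 49.9% of all measured genes were), and 8 were past the fold. Here Mrm2 was the exception at 0.08. The medians were 0.56 and -0.36. Genes picked by the size of their ratio in the KO line thus lay mostly on the same side in the WT line at smaller ratios.

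Calcoco2 again led, at 221 CPM against 55.9 CPM in the WT line (1.96, 1.86 to 2.11). Tbx3 stood at 68.1 CPM against 23.6 CPM (1.49), Klf4 at 207 CPM against 117 CPM (0.81), Bmp4 at 44.3 CPM against 21.3 CPM (1.02) and Pou3f1 at 35.4 CPM against 93.2 CPM (-1.37). The naïve list gave 5 of 8 measured genes past the fold (Klf4, Esrrb, Tbx3, Tfcp2l1, Zfp42) and a median of 0.74. Over all genes measured in the WT line 0.876% were past the fold upwards and 0.335% downwards. Pou3f1, Dnmt3a, Lef1 and Sox4 were past the fold in the lower direction in each line. Tcf15 was not, at 138 CPM against 131 CPM in the WT line (0.07, -0.05 to 0.19), where its level was several times that of the KO line. Whether the lines differ in any of these ratios was not tested. All 15 measured G2/M genes lay above 0 in the WT line with a median of 0.19, where 50.1% of all measured genes lay above 0. In a narrower set of WT-line cells, those with a tdTomato UMI and no Y-linked UMI, only 53 Nanog-high and 158 Nanog-0 cells were left, and 49 of 52 measured higher genes lay above 0 (94.2%, where 49.8% of all measured genes did) and 22 of 26 lower genes below 0 (84.6%, where 50.2% did).

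**Figure D5:**
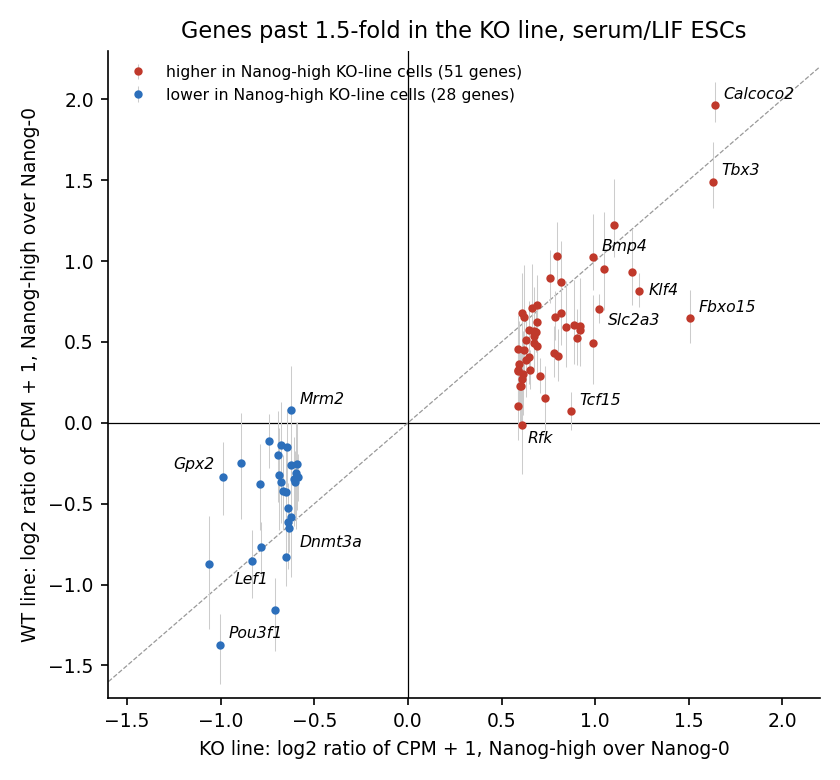
Log2 ratio of CPM + 1, Nanog-high over Nanog-0, in KO-line ESCs (horizontal axis) and WT-line ESCs (vertical axis) for the genes past 1.5-fold in the KO line that were measured in the WT line (51 higher in red, 28 lower in blue). Grey bars are exact 95% counting intervals of the WT-line ratio, the dashed line marks equal ratios, and all but Rfk and Mrm2 lie in the quadrant of the same sign.

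At 48 h Nanog-high cells were rare. In KO-line 48h-EpiLCs Nanog stood at 16.6 CPM, 81.3% of 2264 cells had no UMI and 1.72% had 3 or more, which left 39 Nanog-high cells beside 1841 Nanog-0 cells. Counts over 39 cells are small, and 379 of 5761 measured genes (6.58%) were past the fold in the higher direction and 205 (3.56%) in the lower. These shares come from fewer cells than those of the ESCs and were not compared with them. Of the 66 genes higher in KO-line ESCs 38 were measured here and 37 lay above 0 (97.4%, where 49.2% of all measured genes did), with Sgk1 as the exception. Of the 38 lower genes 36 were measured and 28 lay below 0 (77.8%, where 50.8% did). In WT-line 48h-EpiLCs, with 67 Nanog-high and 1700 Nanog-0 cells, 20 of 25 measured higher genes lay above 0 (80.0%, where 50.7% of all measured genes did), with a median of 0.43. Tcf15, Pmvk, Sgk1, Fbrsl1 and Praf2 lay on the other side. Of 28 measured lower genes 22 lay below 0 (78.6%, where 49.3% did), with a median of -0.16. The values that follow are again those of KO-line 48h-EpiLCs. Calcoco2 stood at 158 CPM against 20.99 CPM (2.85, 2.60 to 3.21). Slc2a3 stood at 268 CPM against 68.2 CPM (1.96, 1.75 to 2.19) and Bmp4 at 60.0 CPM against 4.24 CPM (3.54, 3.28 to 4.34). The BMP targets Id2, at 95.1 CPM against 15.3 CPM (2.56, 2.24 to 3.01), and Id3, at 24.9 CPM against 16.1 CPM (0.60, -0.17 to 1.32), were past the fold too, and the interval of Id3 included 0. The 4 measured genes of that list had a median of 1.58. Of the 12 naïve genes 6 were measured (Klf2, Klf5, Esrrb, Nr0b1, Zfp42, Dppa3). All 6 were past the fold, with a median of 1.14, where 6.58% of all measured genes were. Klf4, Tbx3, Tfcp2l1, Nr5a2, Prdm14 and Tcl1 were under the limit of expression. That limit is on the mean of the 2 groups, so a gene can pass it through its level in 39 Nanog-high cells alone. Counts of higher genes among those measured here are therefore partly set by it. Pou3f1, at 225 CPM against 391 CPM (-0.79), and Fgf5, at 11.7 CPM against 36.9 CPM (-1.58), were lower. The trophoblast-associated genes Tfap2c, Rhox6 and Rhox9 were also past the fold, and that list summed to 426 CPM against 185 CPM. Krt8 and Krt18 were measured and within the fold, and Cdx2, Elf5, Gata3, Hand1 and Plac1 were under the limit. The part of cells of other types in the ratios was not tested. Stage and library cannot be told apart, and 41 barcodes occurred in both libraries.

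Among the promoters of the genes past the fold, the octamer-like letters TTTGCAT (either strand) were no more than a rare match. RefSeq windows were found for 45 of the 66 higher genes and 2 held it (4.44%), for 28 of the 38 lower genes and 1 held it (3.57%), and for 4608 measured genes, of which 3.04% held it. The composite of the Nanog promoter was in 0 of the higher and 0 of the lower genes and in 1 of the 4608 measured genes (0.0217%). The windows of Zfp296, a zinc finger gene higher in Nanog-high cells (59.4 CPM against 32.6 CPM, 0.85), and of Lgr4, a receptor gene lower in them (38.6 CPM against 58.8 CPM, -0.59), are shown as examples from each side, picked after their values had been seen, with each match to TTTGCAT or its reverse complement in capitals. A match is a description of letters and not of a bound site. They cover chr7:19577037-19577286 and chr2:109917397-109917646 (GRCm38.p6, plus strand), each the 250 bases before the start.
Zfp296: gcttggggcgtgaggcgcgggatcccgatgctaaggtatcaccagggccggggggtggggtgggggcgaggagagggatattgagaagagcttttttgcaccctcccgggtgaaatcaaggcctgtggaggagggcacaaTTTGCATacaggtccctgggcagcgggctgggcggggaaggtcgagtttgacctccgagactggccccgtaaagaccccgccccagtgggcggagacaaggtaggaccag
Lgr4: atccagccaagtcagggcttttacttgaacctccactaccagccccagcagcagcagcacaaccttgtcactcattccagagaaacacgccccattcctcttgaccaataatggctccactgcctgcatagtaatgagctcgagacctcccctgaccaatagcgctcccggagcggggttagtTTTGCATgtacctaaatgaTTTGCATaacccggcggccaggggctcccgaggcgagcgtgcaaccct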

How the data were processed

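The authors deposited whole UMI counts for every gene in every barcode, from Cell Ranger 3.0.2 with default parameters on mm10 with the tdTomato coding sequence added. The barcodes were those that Cell Ranger called as cells, and no correction for free RNA is stated. The ESC library held 13184 barcodes and 144584246 UMIs, the 48h-EpiLC library 12427 barcodes and 163771168 UMIs.

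UMIs were summed over the cells of a group and scaled to CPM with Python (3.11.15), numpy (2.4.6) and scipy (1.17.1). CPM carry exact Poisson and shares exact binomial (Clopper-Pearson) 95% intervals. The interval of a log2 ratio is binomial, conditional on the summed count, and without the pseudocount of 1 CPM. With 1 library per stage no test was run. A gene was called past the fold at 1.5-fold. Doublets were not removed but scored by the Scrublet method (2 simulated doublets per cell). Gene positions came from GENCODE M21 (32158 of 32286 features matched by identifier) and promoters from RefSeq on GRCm38.p6.

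The members and gene lists were chosen with earlier results of these data known. Named genes were 2 to 4 members of each list (the largest and smallest ratios and the defining members, more where a pathway is described) and the 10 genes with the largest and the 10 with the smallest ratio, of which 1 is not reported here. Other genes are said to be outside this rule or stand where a group's exceptions are given. The ratio script was tested on simulated data.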

Additional observations from a re-analysis of the deposited data

Results flagged for a closer look

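For 4 named genes the log2 ratio of Nanog-high over Nanog-0 cells had counting intervals on opposite sides of 0 in different sets of cells. None of these differences was tested, because each set comes from 1 library. Nr0b1 had a ratio of -0.24 in KO-line ESCs, 0.23 in WT-line ESCs and 0.84 in KO-line 48h-EpiLCs. S100a6, which encodes a calcium-binding protein abundant in fibroblasts, had one of -0.34 in KO-line ESCs and 2.04 in KO-line 48h-EpiLCs, from 113 CPM in 39 Nanog-high cells against 26.7 CPM. Dnmt3l had one of -0.22 in KO-line ESCs and 0.26 in KO-line 48h-EpiLCs. Pabpc1, the main cytoplasmic poly(A)-binding protein gene, had small ratios of 0.10 and -0.11 in the same order.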

How the results depend on the processing

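The number of genes past the fold depended on the settings. The genes were chosen by their direction in these cells, so that keeping it is a description only. Of the 104 genes past the fold, all kept their sign under 14 of 16 alternatives. Tfpi changed sign among cells of 8000 to 12000 UMIs, and Adap1 and Baz1a did so when Nanog was counted after thinning. Counts past the fold, given as higher and lower beside 66 and 38, were 112 and 77 after thinning to 8000 UMIs, 278 and 227 among cells of 8000 to 12000 UMIs (61 Nanog-high cells), and 283 and 217 with Nanog counted after thinning (74 Nanog-high cells). They were 30 and 9 with Nanog-high set at 2 UMIs, 154 and 116 at 4 UMIs, 108 and 64 with at least 3 Y-linked UMIs, 138 and 89 at a mean of 10 CPM, and 23 and 10 at 50 CPM. With a pseudocount of 5 CPM 24 genes were lower. The cause of these differences was not tested, but the first 3 alternatives use fewer UMIs, and the limits of expression change the number of genes measured. The medians of the naïve and core lists kept their sign in every alternative, and that of the formative list reversed to 0.057 at a mean of 10 CPM. Of 2192 values of named genes 172 moved beyond their counting interval. A reversal was counted only for named genes past the fold in the main comparison, and 0 were found. Changes of sign among the other named genes were not counted. Leaving out cells with Dera or Slc25a13 UMIs was added after seeing the data. No paired analysis was possible because each stage had 1 library. Depth limits calls to genes near or above 20 CPM, and a Nanog count of 0 does not show that a cell lacks Nanog.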
